A study of Mus musculus with 20 samples.

Results

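The comparison of stressed knockout with stressed wildtype mice covers all 5 amygdala arrays whose titles read knockout and stress (KO stress) and all 5 whose titles read wildtype and stress (WT stress), which are 10 of the 20 arrays of the series. All 28767 probe sets of the Affymetrix Mouse Gene 1.0 ST array were compared, with no choice of genes by their values. All mice were males on a C57BL/6 background, 7 months old, housed singly from 5 months and tested on an elevated plus-maze before the experiment. KO mice carried the constitutive deletion of the serotonin transporter (5-HTT, gene Slc6a4) on both alleles, WT mice carried none, and both came from heterozygous parents. Stress was 1 min in a container of water at 22 °C, while the other 10 arrays (KO con and WT con, 5 each) came from mice that spent 1 min in a home cage instead. Each array held total RNA of the left and right amygdala of 1 mouse, and the values are normalised log2 signals. Because the deletion is present in every cell from conception, and all mice were singly housed and maze-tested, a difference between KO stress and WT stress is one between lifelong genotypes in mice that share this history.

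5-HTT is the plasma membrane pump that returns released serotonin to nerve terminals and so ends its action. Its mRNA is made by the serotonergic neurons of the raphe nuclei, which send their axons to the amygdala, a forebrain region that joins cortex-like (pallial) nuclei rich in glutamatergic neurons with striatum-like (subpallial) nuclei rich in GABAergic ones. Ciliated ependyma, choroid plexus, meninges, hypothalamus and striatum lie beside it and can enter a dissected block. Markers of both parts were read on the stress arrays: Slc17a7, the vesicular glutamate transporter of pallial neurons, had a mean log2 level of 9.69 ± 1.55 (SD, n = 5) in WT stress and 8.90 ± 1.31 in KO stress, and Gad1, a GABA-synthesising enzyme, one of 10.82 ± 0.29 (SD, n = 5) in WT stress and 11.07 ± 0.21 in KO stress, above the array medians of 6.59 to 6.82. In such tissue, fewer cells of a type and less RNA per cell cannot be told apart.

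The targeted gene separated the groups completely, but in the direction of a higher signal in the arrays labelled KO. Slc6a4 had log2 levels of 6.55, 6.32, 6.30, 6.44 and 6.35 in WT stress and 8.10, 8.38, 8.28, 8.35 and 8.27 in KO stress, so the lowest KO array lay above the highest WT array. The mean was 6.39 ± 0.10 (SD, n = 5) in WT stress and 8.28 ± 0.11 in KO stress. The difference was 1.88 ± 0.23 (SE), a 3.69-fold higher signal, with an adjusted p of 0.00512 (limma), and the exact permutation test gave p = 0.00794, the smallest it can give for 5 against 5. In con mice the levels were 6.73, 5.82, 6.20, 6.52 and 7.82 in WT and 8.17, 8.20, 8.14, 8.17 and 8.11 in KO, a difference of 1.54. WT con replicate 5, at 7.82, lay closer to the KO con arrays than to the other WT con arrays. The probe positions of this set were not known here, and they may fall outside the targeted exon, so a higher signal does not check the loss of the transporter. The groups are named by their labels, and every direction given here rests on them.

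Slc6a4 was the 1 probe set of 28767 (0.00348%) that passed adjustment over the whole array. The other genes were therefore called by the criterion of the study, a fold over 1.5 (a log2 difference above 0.58) with an unadjusted p under 0.05, here from limma. By this criterion 100 probe sets were higher in KO stress (0.348% of all tested) and 121 were lower (0.421%). No such gene passed adjustment, and these calls are described as meeting the criterion, not as established changes. Of the 28767 probe sets, 103 (0.358%) had all 5 KO stress values above all WT stress values and 190 (0.66%) had them all below.

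The arrays were not equally alike. WT stress replicate 1 had a median correlation of 0.961 with the other arrays, against 0.980 to 0.988 for the other 4 WT stress arrays. Without it, 43 probe sets were higher and 64 lower by the criterion, of which 41 and 50 were among the original 100 and 121. Leaving out WT stress replicate 4 gave 219 and 343 instead, so the counts depend on single WT arrays in both directions. Of 70 called genes named here, Slc6a4 apart, 35 met the criterion without WT stress replicate 1 and 16 did so without each of the 10 arrays in turn. Those 16 were Fam183b, Spag17, Rsph4a, Dlx1, Dlx2, Fbln5, Ngb, Ankfn1 and Gpc3, which were higher, and Cdh9, Chrm1, Grin2a, Rnf112, Gm10590, 4930578G10Rik and Mir680-2, which were lower.

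**Figure D1:**
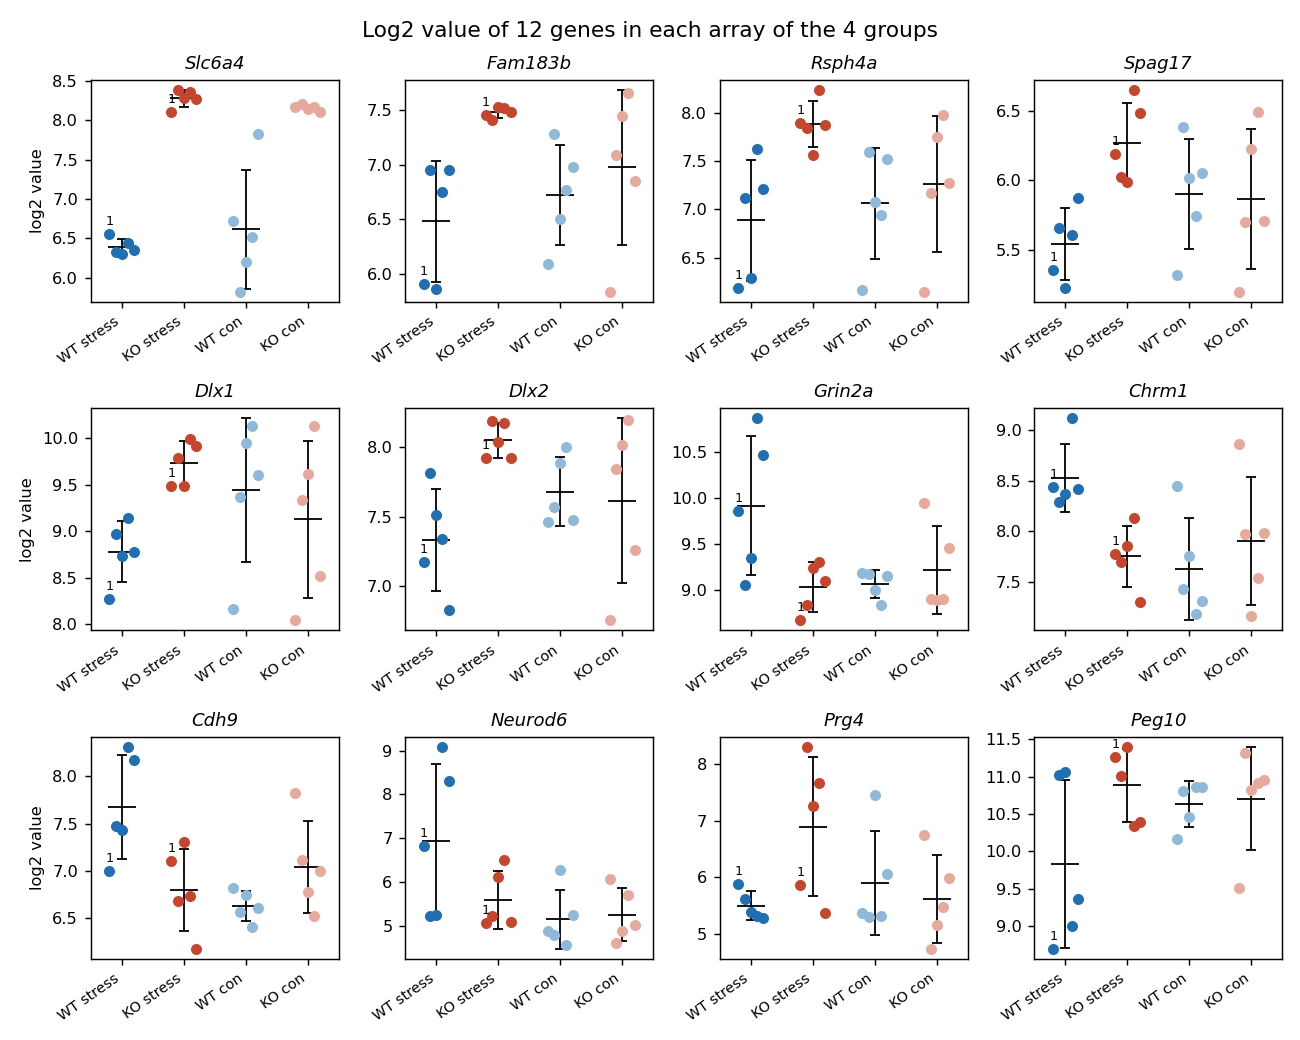
Log2 signal (vertical axis) of 12 genes in the arrays of WT stress, KO stress, WT con and KO con, 1 point per array, with the mean as a line and the SD (n = 5) as error bars, and replicate 1 of both stress groups marked. Slc6a4 shows the gap between 6.55, the highest WT stress array, and 8.10, the lowest KO stress array.

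The most numerous group of named genes above WT was that of motile cilia. Motile cilia beat on ependymal cells, which line the ventricles. Each holds an axoneme of microtubule doublets bridged by dynein arms, with radial spokes that reach a central pair, and the RFX and FOXJ1 transcription factors switch on the genes that build it. Of 92 measured genes of this list, 81 were higher in KO stress, where 45.9% of all 19933 genes were, and the median difference was 0.29, against -0.01 over all genes. By the criterion 13 were higher and 0 lower, where 0.346% of all genes met it as higher. The study's own list for this comparison holds 13 of the 92, which are not the same 13. Of the other 79, 68 were higher, with a median of 0.23, and 3 met the criterion as higher.

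Fam183b, which encodes a protein of motile cilia, had log2 levels of 5.91, 6.95, 5.86, 6.75 and 6.95 in WT stress and 7.45, 7.41, 7.53, 7.52 and 7.49 in KO stress. All 5 KO values lay above all WT values, and they spanned a narrow range while WT replicates 1 and 3 were low. The difference was 1.00 ± 0.30 (exact permutation p = 0.00794). Spag17, a central pair protein needed for ciliary beating, had levels of 5.35, 5.66, 5.23, 5.61 and 5.87 in WT stress and 6.19, 6.02, 5.99, 6.65 and 6.49 in KO stress. These groups did not overlap either, and the difference was 0.72 ± 0.22 (exact permutation p = 0.00794).

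Rsph4a encodes a protein of the radial spoke head. Its levels were 6.19, 7.12, 6.28, 7.63 and 7.21 in WT stress and 7.89, 7.84, 7.57, 8.23 and 7.87 in KO stress. WT replicate 4 reached into the KO range, and the difference was 1.00 ± 0.34 (exact permutation p = 0.0159). Stk33, a serine/threonine kinase, had levels of 5.51, 6.39, 6.15, 6.13 and 6.20 in WT stress and 7.17, 6.52, 6.61, 6.66 and 6.95 in KO stress, with no overlap and a difference of 0.71 ± 0.25. Without WT stress replicate 1 it was 0.57, below the criterion.

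The dynein heavy chains, the motors of the axoneme, were spread more widely. Dnah3 had levels of 7.99, 8.06, 6.88, 7.73 and 7.96 in WT stress and 8.04, 8.29, 8.04, 9.12 and 8.37 in KO stress for the probe set with the highest mean of its 33. WT replicate 3 was low and KO replicate 4 high, and the difference was 0.65 ± 0.30 (exact permutation p = 0.0238). Over its 33 probe sets the differences ran from 0.170 to 1.504, and 13 met the criterion. Leaving out WT stress replicate 3 or 4, or KO stress replicate 2, 4 or 5, ended the call of the set given. Dnah6 had a difference of 0.98 ± 0.53 and did not meet the criterion, and WT replicates 4 and 5, at 7.88 and 7.75, lay inside the KO range.

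By role, 16 of 17 dynein chains were higher in KO stress (median 0.21), as were 4 of 4 radial spoke genes (0.40), 5 of 7 central pair genes (0.28) and 6 of 8 genes for dynein assembly (0.15). All 26 genes of the nexin links, docking complexes and other axonemal parts were higher (0.35), with 3 past the criterion. Of 21 other genes known from ependymal cells, 20 were higher (0.45), with 7 past the criterion. Among the 14 of these that the study does not list for this comparison, 13 were higher and 1 met the criterion. The regulators did not share this: 4 of 9 were higher, with a median of 0.00. Foxj1 had a difference of 0.34 ± 0.16, Rfx2 one of 0.19, and Rfx3 was at -0.39 ± 0.17, none of which met the criterion.

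The remaining ciliary genes past the criterion were Mns1 (0.60 ± 0.21), Stoml3 (0.68 ± 0.25), Odf3b (0.82 ± 0.32), Iqca (0.69 ± 0.30), Ccdc81 (0.64 ± 0.29), Enkur (0.79 ± 0.36), Ccdc153 (0.88 ± 0.42) and 1700007K13Rik (0.94 ± 0.37). Odf3b alone of these 8 had all KO values above all WT values. The calls of Mns1, Ccdc81, Enkur, Ccdc153 and 1700007K13Rik ended without WT stress replicate 1, and those of Stoml3, Odf3b and Iqca without WT stress replicate 3. Without WT stress replicate 1, 7 of the 92 genes met the criterion and the list median was 0.28. Leaving out each array in turn kept the median between 0.21 and 0.40.

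**Figure D2:**
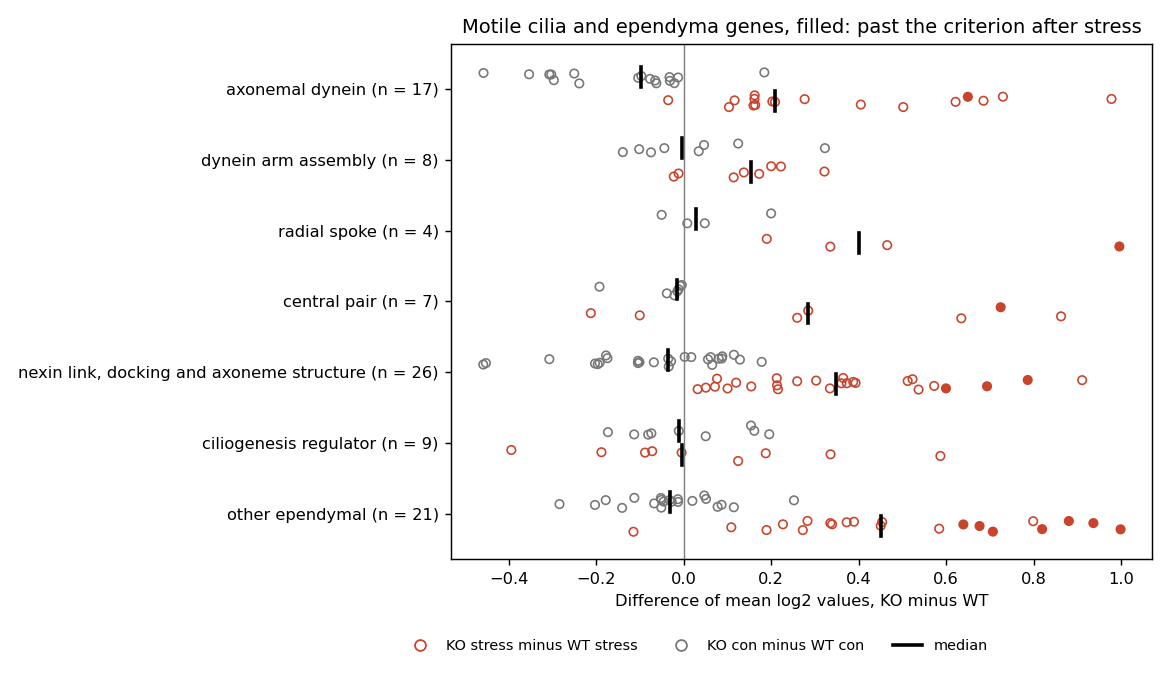
Difference in log2 signal between KO stress and WT stress (red, filled where the criterion was met) and between KO con and WT con (grey), on the horizontal axis, for each measured gene of the motile cilia list, 1 point per gene, grouped by role, with medians as black ticks. In stress all 26 genes of the nexin link, docking and axoneme group lie above 0, while 4 of 9 regulators do.

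Promoters of called ciliary genes are shown with matches to the X-box, the site that RFX factors bind. Any part of RFX factors in the higher levels of these genes was not tested. The sequences are the 250 bases before the start of transcription (RefSeq, GRCm38.p6), 5′ to 3′ on the strand of the gene, for the 4 genes with the smallest p whose promoter the table holds. Capitals mark the single site GTTGCC on either strand (GGCAAC when read on the gene's strand) or the paired site GTTNCC, 1 to 3 bases, GGNAAC. Fam183b lies at chr11:58801961-58802210 (minus strand), Spag17 at chr3:99885167-99885416 (plus strand), Mns1 at chr9:72438279-72438528 (plus strand) and Stoml3 at chr3:53488457-53488706 (plus strand).
Fam183b: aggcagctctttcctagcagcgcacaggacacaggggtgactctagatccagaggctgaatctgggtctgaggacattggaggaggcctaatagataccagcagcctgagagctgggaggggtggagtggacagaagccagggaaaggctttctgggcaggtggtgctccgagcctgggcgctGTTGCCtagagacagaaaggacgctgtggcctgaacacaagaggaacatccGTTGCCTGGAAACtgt
Spag17: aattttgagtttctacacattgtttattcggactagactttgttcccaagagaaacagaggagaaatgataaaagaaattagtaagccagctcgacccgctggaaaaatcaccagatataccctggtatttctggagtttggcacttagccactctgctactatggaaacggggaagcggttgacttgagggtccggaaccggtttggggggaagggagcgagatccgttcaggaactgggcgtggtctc
Mns1: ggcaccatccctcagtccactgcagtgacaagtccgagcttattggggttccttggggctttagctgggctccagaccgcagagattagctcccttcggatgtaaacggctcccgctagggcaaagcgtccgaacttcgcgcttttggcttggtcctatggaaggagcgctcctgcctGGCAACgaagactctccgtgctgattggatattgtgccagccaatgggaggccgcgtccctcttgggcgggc
Stoml3: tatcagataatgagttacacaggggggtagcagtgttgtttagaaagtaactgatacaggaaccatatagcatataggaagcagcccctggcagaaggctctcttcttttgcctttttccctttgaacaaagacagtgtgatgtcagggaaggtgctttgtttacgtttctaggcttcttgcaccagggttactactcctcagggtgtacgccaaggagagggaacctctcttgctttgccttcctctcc
Fam183b held single sites 67 and 16 bases upstream of the start, the nearer of which overlaps its 1 paired site. Mns1 held 1 single site 72 bases upstream, and Spag17 and Stoml3 held neither motif. Of 27025 promoters in the table, 2833 (10.5%) held the single site and 178 (0.659%) the paired site. Of the 74 measured ciliary genes with a promoter there, 27 (36.5%) held the single site and 4 (5.41%) the paired one, and of the 9 called genes with a promoter 5 (55.6%) and 2 (22.2%) did. A match describes letters, not a bound site.

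The cilia score of an array is the mean over the list of each gene's log2 level less its mean over all 20 arrays. It was -0.28, -0.16, -0.50, 0.23 and 0.09 in WT stress and 0.25, 0.16, -0.04, 0.43 and 0.29 in KO stress. The groups overlapped, since WT replicate 4 lay above 2 KO arrays. In con mice the list leaned to the other side, though close to 0: 62 of 92 genes were lower in KO, where 54.5% of all genes were higher, and the median was -0.03. By role, 16 of 17 dynein chains (median -0.10) and 7 of 7 central pair genes (-0.01) were lower there. So were 15 of 26 genes of the nexin links, docking complexes and other axonemal parts and 14 of 21 other ependymal genes. Of the radial spoke genes 3 of 4 were higher in con (0.03), as were 4 of 8 genes for dynein assembly and 4 of 9 regulators.

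Choroid plexus, the secretory epithelium of the ventricles, borders the ependyma, and its genes were read beside those of the cilia. Of 35 measured, 28 were higher in KO stress with a median of 0.30, and 0 met the criterion. Ttr, the carrier of thyroid hormone that choroid plexus makes in great amounts, had levels of 12.52, 7.42, 7.23, 13.18 and 8.79 in WT stress and 12.01, 13.04, 9.23, 12.10 and 11.65 in KO stress. Both groups held arrays with strong and weak signals, and the difference was 1.78 ± 1.22. Kcnj13, a potassium channel of the same epithelium, ran from 5.94 to 11.57 in WT stress and from 6.89 to 10.79 in KO stress. Ace, the angiotensin-converting enzyme, differed by 0.35 ± 0.39. The list median moved between 0.09 and 0.81 when arrays were left out in turn, and the part of ventricular tissue in the ciliary result was not tested.

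**Figure D3:**
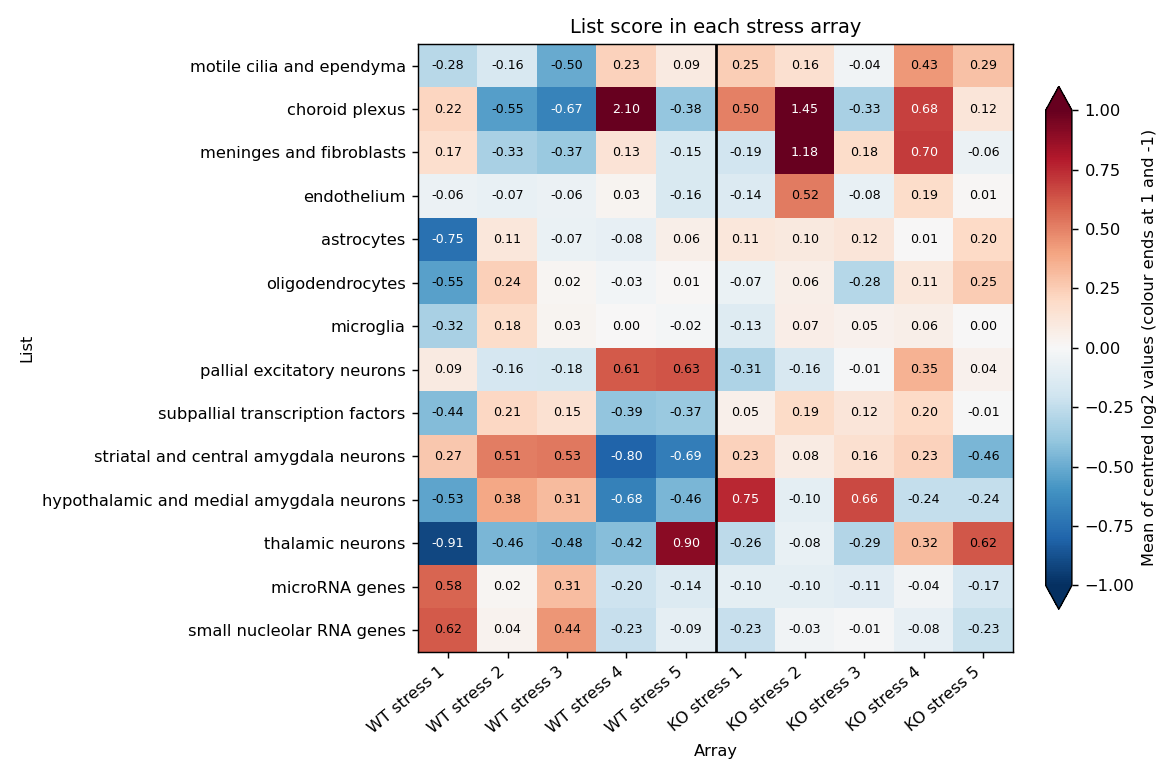
Heat map of the score of each gene list (rows, the mean over the list of the log2 level less the gene's mean over all 20 arrays) in each WT stress and KO stress array (columns), with the score printed and as colour from blue (low) to red (high). For cilia the WT stress arrays run from -0.50 to 0.23 and the KO stress arrays from -0.04 to 0.43.

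Of 38 genes of pallial excitatory neurons, 26 were lower in KO stress, with a median difference of -0.24. By the criterion 6 were lower and 0 higher, where 0.226% of all genes met it as lower. The study lists Chrm1 and Cdh9 for this comparison. It lists Prdm8 and Sema3e for stress against control in WT mice, which uses the same WT stress arrays. Of the 36 genes not listed for this comparison, 12 were higher, with a median of -0.22, and 4 met the criterion as lower. Of 30 transcription factors of the subpallium, 23 were higher, with a median of 0.23, and 4 met the criterion as higher and 0 as lower. Over all genes 0.346% met it as higher. Of the 27 factors that the study does not list for this comparison, 20 were higher, with a median of 0.19, and 1 met the criterion. In con mice the pallial median was 0.11, with 29 of 38 higher in KO, and the subpallial one 0.14, with 21 of 30 higher.

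Dlx1 and Dlx2 are neighbouring homeobox genes that drive the making of GABAergic neurons. Dlx1 had levels of 8.27, 8.96, 8.74, 9.14 and 8.77 in WT stress and 9.48, 9.79, 9.49, 9.99 and 9.92 in KO stress, with no overlap and a difference of 0.95 ± 0.36 (exact permutation p = 0.00794). Dlx2 had levels of 7.17, 7.82, 7.51, 7.34 and 6.82 in WT stress and 7.92, 8.19, 8.04, 8.17 and 7.93 in KO stress, a difference of 0.72 ± 0.23. All 5 KO values were above all WT values for both genes, while the con differences were -0.31 and -0.06. Both met the criterion without each array in turn.

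Dlx5, of the same family, had levels of 7.13, 8.88, 8.90, 7.79 and 7.40 in WT stress and 8.63, 8.95, 8.75, 8.98 and 8.80 in KO stress. WT replicates 2 and 3 lay inside the KO range, the difference was 0.80 ± 0.30, and it fell short of the criterion without WT stress replicate 1. Zfp521, a zinc finger factor of striatal neurons, had levels of 7.82, 8.80, 8.70, 8.86 and 8.75 in WT stress and 9.01, 9.55, 9.14, 9.35 and 9.62 in KO stress. The groups did not overlap, the difference was 0.75 ± 0.30, and without WT stress replicate 1 it was 0.56. Zic1, a zinc finger factor of the septum and ventral forebrain, differed by 1.02 ± 0.53, which did not meet the criterion. The GABA-synthesising enzymes Gad1 and Gad2 differed by 0.25 ± 0.14 and 0.36 ± 0.20, and 14 of 27 general GABAergic genes were higher (median 0.02, 0 past the criterion).

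Among pallial genes, Chrm1, the muscarinic M1 acetylcholine receptor of principal neurons, had levels of 8.44, 8.29, 8.37, 9.12 and 8.41 in WT stress and 7.77, 7.69, 7.86, 8.13 and 7.30 in KO stress. The groups did not overlap and the difference was -0.77 ± 0.28 (exact permutation p = 0.00794), against 0.28 in con. Cdh9, a cadherin that joins hippocampal synapses, had levels of 6.99, 7.47, 7.43, 8.31 and 8.17 in WT stress and 7.10, 6.68, 7.30, 6.73 and 6.17 in KO stress. KO replicates 1 and 3 lay inside the WT range. The difference was -0.88 ± 0.26 in stress and 0.42 in con. Both genes met the criterion without each array in turn.

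The other 4 pallial calls depended on single arrays. Neurod6, a bHLH factor of cortical and hippocampal pyramidal neurons, had levels of 6.83, 5.22, 5.25, 9.09 and 8.32 in WT stress and 5.07, 5.22, 6.11, 6.50 and 5.09 in KO stress. WT replicates 4 and 5 were far above the others, and the difference of -1.34 ± 0.62 had an exact permutation p of 0.135. Prdm8 had levels of 6.70, 6.56, 6.50, 8.75 and 8.32 in WT stress and Zbtb18 levels of 9.38, 8.78, 8.67, 10.92 and 10.43, with the same 2 arrays on top, and their differences were -0.93 ± 0.36 and -0.81 ± 0.33. Both encode repressors of transcription in developing pallial neurons. The 3 calls ended without WT stress replicate 4 or without replicate 5, that of Zbtb18 also without KO stress replicate 1, and that of Neurod6 also without WT stress replicate 1 or KO stress replicate 1, 2 or 5. Sema3e, a secreted guidance factor, differed by -0.59 ± 0.26, and its call ended without WT stress replicate 2, 4 or 5 or KO stress replicate 1, 2, 3 or 5.

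The vesicular glutamate transporters, which mark glutamatergic neurons, did not meet the criterion. Slc17a7, the form of the pallium, differed by -0.79 ± 0.77 and Slc17a6, the form of thalamus and hypothalamus, by 0.91 ± 0.59. Tbr1, a pallial transcription factor, differed by -0.30 ± 0.38.

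Markers of neighbouring nuclei varied among the WT stress arrays. The pallial score was 0.09, -0.16, -0.18, 0.61 and 0.63 in WT stress and -0.31, -0.16, -0.01, 0.35 and 0.04 in KO stress. The score of 29 striatal and central amygdala genes was 0.27, 0.51, 0.53, -0.80 and -0.69 in WT stress and 0.23, 0.08, 0.16, 0.23 and -0.46 in KO stress. Of these 29 genes 17 were higher in KO stress (median 0.06) and 0 met the criterion. WT replicates 4 and 5 were high for pallial and low for striatal genes. Penk, the enkephalin precursor of striatal neurons, ran from 8.74 in WT stress replicate 5 to 12.22 in WT stress replicate 2, against 10.27 to 11.65 in KO stress. The part of these regional differences in the pallial and subpallial results was not tested. The pallial median ran from -0.32 to -0.11 and the subpallial one from 0.09 to 0.40 as arrays were left out in turn.

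Among the markers on the GABAergic list 0 met the criterion. Pvalb, a calcium buffer of fast-spiking interneurons, had levels of 6.52, 7.97, 7.17, 7.34 and 7.26 in WT stress and 6.48, 6.60, 7.05, 6.31 and 6.55 in KO stress. WT replicate 1 lay at the KO level and the other 4 above the KO range. The difference of -0.66 ± 0.37 met the criterion on the stress arrays alone or without WT stress replicate 1. Synpr differed by -0.50 ± 0.20 and Calb2 by 0.98 ± 0.54. Of the amygdala's subpallial markers, Prkcd, which marks lateral central amygdala cells, differed by 0.84 ± 0.69 and Nts, the neurotensin precursor, by 0.90 ± 0.46. Prkcd is also on the list of thalamic genes given below. Without WT stress replicate 5, the highest WT stress array in the thalamic score, it differed by 1.28.

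Of 74 measured receptors for transmitters and peptides, 39 were higher in KO stress (median 0.01), and 1 met the criterion as higher and 2 as lower. Among all genes 0.346% met it as higher and 0.226% as lower. The count of receptors leaves out a probe set without a symbol here, which the study names as the adrenergic receptor gene Adra2a. That set met the criterion as higher (0.94 ± 0.30), against -0.15 in con. Grin2a encodes the GluN2A subunit of the NMDA receptor, which grows in share as synapses mature. Its levels were 9.86, 9.06, 9.35, 10.87 and 10.47 in WT stress and 8.67, 8.84, 9.24, 9.31 and 9.10 in KO stress. The WT arrays were mostly above the KO arrays, with WT replicate 2 inside the KO range, and the difference was -0.89 ± 0.28 (exact permutation p = 0.0397), against 0.15 in con. Of the 20 glutamate receptor genes, 12 were lower (median -0.14). The other receptor called lower was Chrm1, given above, where 5 of 10 cholinergic receptor genes were higher.

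Avpr1a, the vasopressin V1a receptor, a peptide receptor of social and anxiety circuits, had levels of 6.26, 7.27, 7.12, 7.52 and 6.96 in WT stress and 7.60, 7.61, 7.49, 7.60 and 8.34 in KO stress. KO replicate 5 stood above the rest, and the difference was 0.70 ± 0.31 (exact permutation p = 0.0159). Without WT stress replicate 1 it was 0.51, below the criterion, and the call also ended without WT stress replicate 5 or KO stress replicate 5. Of 11 GABA receptor genes 8 were higher, Gabrg1 by 0.58 ± 0.26 with no call, and of 5 dopamine receptor genes 1 was higher (median -0.12, against 0.33 in con).

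Calcium buffers, sensors, channels and adhesion molecules formed a mixed list: 40 of 73 were higher (median 0.03), 3 met the criterion as higher and 5 as lower. Among all genes 0.346% met it as higher and 0.226% as lower. Of 8 genes for release from stores 7 were lower (median -0.26), and of 9 kinases and phosphatases that calcium drives 7 were lower (-0.12). Of 26 EF-hand proteins 18 were higher (0.14), as were 6 of 8 annexins (0.20).

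Slc24a2, a potassium-dependent sodium/calcium exchanger that clears calcium from neurons, had levels of 9.86, 10.18, 10.24, 10.51 and 10.53 in WT stress and 9.63, 9.44, 9.84, 9.65 and 9.52 in KO stress. No WT value reached down to the KO range, and the difference was -0.65 ± 0.19 (exact permutation p = 0.00794), against 0.28 in con. Cabp1, a calmodulin-like regulator of calcium channels, had levels of 7.998, 7.40, 7.50, 7.47 and 7.36 in WT stress and 7.13, 6.63, 7.12, 7.13 and 6.40 in KO stress. Here too the groups did not overlap, with a difference of -0.66 ± 0.28, which was -0.55 without WT stress replicate 1. The call of Slc24a2 ended without WT stress replicate 4 or 5.

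Cabp7 (-0.89 ± 0.41) and Jph1 (-0.76 ± 0.28), a junctophilin that couples plasma membrane to endoplasmic reticulum, were lower, with WT replicates 4 and 5 on top for both. Anxa1, an annexin that limits inflammation, had levels of 5.86, 5.92, 5.47, 6.60 and 6.50 in WT stress and 6.47, 7.83, 6.45, 7.24 and 6.79 in KO stress, a difference of 0.89 ± 0.35. KO replicate 2 was the highest array for Anxa1 and also for S100a11, an EF-hand protein, which differed by 0.60 ± 0.27. Without KO stress replicate 2 neither met the criterion. Cdh18 differed by 0.60 ± 0.26, and by 0.37 without WT stress replicate 1.

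GDNF and its relatives keep neurons alive through the Ret receptor kinase, to which GFRα coreceptors present them. Ret had levels of 6.87, 7.48, 7.23, 7.50 and 7.58 in WT stress and 7.56, 8.17, 8.12, 7.89 and 8.27 in KO stress, a difference of 0.67 ± 0.28 (exact permutation p = 0.0159). Gfra2, the coreceptor for neurturin, had levels of 8.07, 8.46, 8.34, 8.90 and 8.64 in WT stress and 8.90, 9.14, 9.17, 9.14 and 9.40 in KO stress. For Gfra2 the lowest KO value lay above the highest WT value by less than the rounding, and the difference was 0.67 ± 0.29 (exact permutation p = 0.00794). Gfra1, the coreceptor for GDNF, differed by 0.49 ± 0.19 without meeting the fold. Over the 11 measured genes of the family 5 were higher, with a median of -0.05. Without WT stress replicate 1 the differences of Ret and Gfra2 were 0.55 and 0.57, and no gene of the family met the criterion.

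Of 44 axon guidance genes 26 were higher (median 0.10), 1 met the criterion as higher (Efna5, 0.60 ± 0.23) and 2 as lower (Sema3e, given above, and Robo3, -0.68 ± 0.32). The shares over all genes were 0.346% higher and 0.226% lower. Robo2, a receptor for the repellent Slit proteins, had levels of 9.15, 9.55, 9.20, 9.28 and 8.88 in WT stress and 8.69, 8.47, 8.61, 8.84 and 8.66 in KO stress. All 5 KO values lay below all WT values (exact permutation p = 0.00794). The difference of -0.56 ± 0.29 met neither the fold nor the limma p of the criterion. In con it was 0.55, in the other direction. The calls of Efna5 and Robo3 ended without WT stress replicate 1, among other arrays.

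Hypothalamic and medial amygdala genes were mostly higher in KO stress, 31 of 36 with a median of 0.37, where 45.9% of all genes were. By the criterion 6 were higher, where 0.346% of all genes met it as higher. Of the 34 that the study does not list for this comparison, 29 were higher, with a median of 0.31, and 4 met the criterion. Peg10, an imprinted gene derived from a retrotransposon, had levels of 8.70, 11.02, 11.06, 9.01 and 9.36 in WT stress and 11.27, 11.01, 11.40, 10.34 and 10.39 in KO stress. WT replicates 2 and 3 lay inside the KO range and the other 3 below it, and the difference was 1.05 ± 0.43. Dlk1, an imprinted Notch-like ligand, had levels of 7.50, 8.91, 8.60, 7.54 and 7.26 in WT stress and 8.97, 8.88, 9.20, 8.34 and 8.34 in KO stress with the same 3 WT arrays low, and a difference of 0.78 ± 0.31. The other 4 were Nnat (0.62 ± 0.22), Ecel1 (0.68 ± 0.29), Zcchc12 (0.65 ± 0.24) and Avpr1a, given above. Irs4 (0.86 ± 0.60) and Gpr101 (0.85 ± 0.47) did not meet the criterion. The score of the list was -0.53, 0.38, 0.31, -0.68 and -0.46 in WT stress and 0.75, -0.10, 0.66, -0.24 and -0.24 in KO stress. Without WT stress replicate 1 none of the list met the criterion, with a median of 0.28. Thalamic genes, a neighbouring region too, had 19 of 23 higher (median 0.27, 0 past the criterion).

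Meningeal and fibroblast genes encode collagens, small proteoglycans and other matrix of the brain's coverings. Of 43 measured, 41 were higher in KO stress with a median of 0.50, the highest median among the lists. By the criterion 5 were higher, where 0.346% of all genes met it as higher. The study's list for this comparison holds 4 of the 43. Of the other 39, 37 were higher, with a median of 0.46, and 1 met the criterion. Prg4, a lubricating proteoglycan, had levels of 5.88, 5.62, 5.39, 5.33 and 5.27 in WT stress and 5.86, 8.30, 7.25, 7.67 and 5.38 in KO stress. KO replicates 2, 3 and 4 were high and replicates 1 and 5 at the WT level, so the difference of 1.40 ± 0.52 had an exact permutation p of 0.0556. Fbln5, an elastic fibre protein, had levels of 7.32, 7.49, 6.88, 7.66 and 7.77 in WT stress and 7.91, 8.70, 8.01, 8.11 and 8.10 in KO stress. Its groups did not overlap, and the difference was 0.74 ± 0.23 (exact permutation p = 0.00794), against -0.14 in con.

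Dcn (0.86 ± 0.41), Efemp1 (0.80 ± 0.30) and Foxd1 (0.70 ± 0.31) were the other 3, and all 3 calls, with that of Prg4, ended without KO stress replicate 2. The score of the list was 0.17, -0.33, -0.37, 0.13 and -0.15 in WT stress and -0.19, 1.18, 0.18, 0.70 and -0.06 in KO stress. KO replicates 2 and 4 carried most of the difference, and without KO stress replicate 2 the median was 0.24. The part of meningeal tissue in the block was not tested. Fmod, a collagen-binding proteoglycan, differed by 0.90 ± 0.54 with no call. In con 8 of 43 genes were higher in KO, with a median of -0.12.

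Genes of vessels and immune cells gave few calls. Among all genes 0.346% met the criterion as higher. Of 25 endothelial genes 21 were higher (median 0.18) and of 17 pericyte and smooth muscle genes 13 were (0.18), with 1 call, Kcnmb1 (0.63 ± 0.29), a subunit of the potassium channel of smooth muscle. Without KO stress replicate 2 these medians were 0.05 and 0.00. Of 21 microglial genes 12 were higher (median 0.04, 0 past the criterion). Cd74, the chaperone of MHC class II molecules, had levels of 6.16, 6.07, 5.94, 7.04 and 6.002 in WT stress and 6.29, 7.78, 6.74, 7.58 and 6.54 in KO stress, a difference of 0.74 ± 0.29, and KO replicates 2 and 4 were again the highest. Its partner H2-Aa differed by 0.49 ± 0.27 with no call. Of the 7 MHC class II genes measured 4 were higher and 3 lower (median 0.05), and 1 of the lower ones, Ciita, the activator of this gene class, had a difference of -0.18 at an unadjusted p under 0.05.

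Astrocyte genes were higher in KO stress for 23 of 24 members, with a median of 0.22 and 0 past the criterion. WT stress replicate 1 had a score of -0.75, against -0.08 to 0.11 in the other WT stress arrays and 0.01 to 0.20 in KO stress, and without it the median was 0.08. Gjb6, connexin 30 of astrocyte gap junctions, had levels of 7.14, 8.05, 7.87, 7.53 and 7.84 in WT stress and 8.20, 8.35, 8.18, 8.10 and 8.08 in KO stress. The groups did not overlap, but the difference of 0.50 ± 0.17 missed the fold. Gjb6 is also on the list of meningeal and fibroblast genes given above. Agt, angiotensinogen, differed by 0.74 ± 0.49. Of 21 oligodendrocyte genes 17 were higher, with a median of 0.05, which was -0.08 without WT stress replicate 1.

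**Figure D4:**
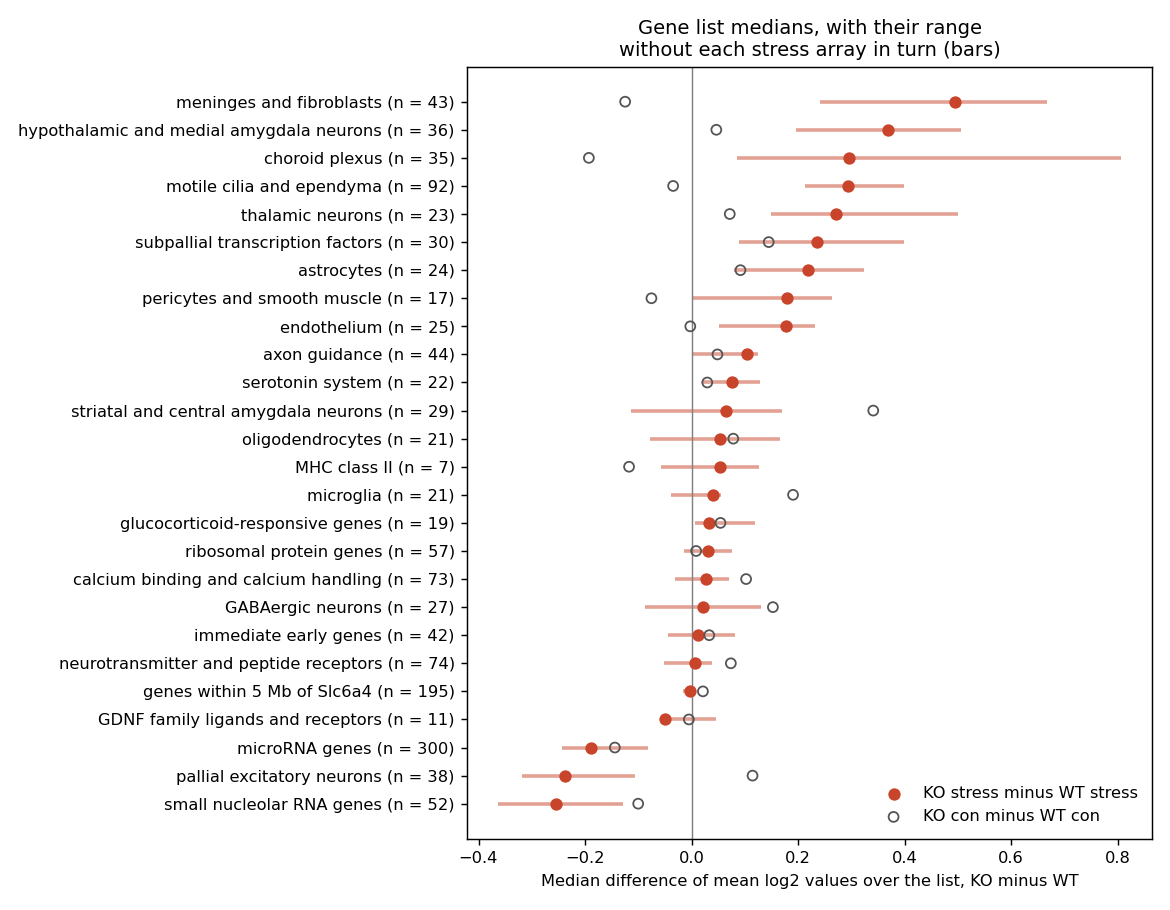
Median difference in log2 signal, KO minus WT (horizontal axis), of each gene list in stress and in con mice, 1 point per list (filled in stress, open in con), with bars for the range of the stress median without each stress array in turn. The meninges list has the highest median in stress, 0.50, and lies at -0.12 in con.

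Genes that respond within minutes to neuronal activity lay around 0 as a list. Of 42 immediate early genes 24 were higher (median 0.01), with 1 call in each direction. The shares called over all genes were 0.346% higher and 0.226% lower. Fos differed by 0.17 ± 0.19, Egr1 by 0.01 ± 0.25 and Arc by 0.20 ± 0.24, and none met the criterion. Sik1, a salt-inducible kinase that curbs CREB signalling, had levels of 7.77, 8.56, 8.36, 8.55 and 8.58 in WT stress and 8.71, 9.02, 8.68, 9.36 and 9.17 in KO stress. The groups did not overlap (exact permutation p = 0.00794), and the difference was 0.62 ± 0.23, or 0.48 without WT stress replicate 1. Nr4a3, an orphan nuclear receptor induced by activity, was lower by the criterion (-0.64 ± 0.28) with WT replicate 4 and KO replicate 4 on top of their groups. Ptgs2 and Plk2 differed by -0.79 ± 0.44 and -0.44 ± 0.25 with no call.

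Glucocorticoid-responsive genes, which follow the stress hormone corticosterone over a longer time, had 13 of 19 higher, a median of 0.03 and 0 calls. Zbtb16 differed by -0.47 ± 0.22, Sgk1 by -0.27 ± 0.16 and Fkbp5 by 0.03.

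Of 22 measured serotonin system genes 14 were higher (median 0.08), and 2 met the criterion, Slc6a4 and Slc18a2. Among all genes 0.346% met it as higher. Slc18a2, the vesicular monoamine transporter that loads serotonin and other amines into vesicles, had levels of 6.63, 6.75, 6.59, 7.45 and 7.03 in WT stress and 7.18, 7.56, 7.47, 7.42 and 8.19 in KO stress. WT replicate 4 lay inside the KO range, and the difference of 0.67 ± 0.31 lost its call without WT stress replicate 1, 2 or 3 or KO stress replicate 2, 3 or 5. Of 14 serotonin receptors 7 were higher (median 0.02). Htr1a, the inhibitory receptor on serotonergic and forebrain neurons, differed by 0.61 ± 0.31 and did not meet the criterion. Maob, which breaks down monoamines, differed by 0.48 ± 0.38 and Tph2, the enzyme that makes serotonin in neurons, by 0.19 ± 0.15.

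Small RNA genes lay on the other side. Of 300 microRNA genes 277 were lower in KO stress, with a median of -0.19, where 10768 of all 19933 genes were lower. By the criterion 5 were lower and 0 higher, where 0.226% of all genes met it as lower. Of 52 small nucleolar RNA genes, taken by their symbols, 51 were lower (median -0.25), with 1 call, Snord57 (-0.59 ± 0.25). Both lists were also lower in con, with 266 of 300 and 43 of 52 genes lower and medians of -0.14 and -0.10, where 9049 of all 19933 genes were lower. The mature sequences made from the called microRNA genes are shown to identify the genes, with the seed (bases 2 to 8), which pairs with target mRNAs, in capitals (RefSeq, GRCm38.p6). No seed is shared between them, and the 2 loci of mmu-miR-680 encode the same mature sequence.
mmu-miR-137-5p: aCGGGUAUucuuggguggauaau
mmu-miR-137-3p: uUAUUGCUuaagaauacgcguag
mmu-miR-15a-5p: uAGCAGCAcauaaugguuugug
mmu-miR-15a-3p: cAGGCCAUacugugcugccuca
mmu-miR-680: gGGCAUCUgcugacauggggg
mmu-miR-690: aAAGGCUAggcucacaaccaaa
Whether these probe sets measured the host transcript, the hairpin or the mature form was not known here.

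Mir137, whose product restrains neuronal maturation, had levels of 6.89, 6.21, 6.72, 5.70 and 5.95 in WT stress and 5.50, 5.76, 5.86, 5.37 and 5.47 in KO stress, a difference of -0.70 ± 0.23 (exact permutation p = 0.0238). Mir680-2 had levels of 9.996, 8.09, 8.75, 7.21 and 7.84 in WT stress and 7.43, 7.15, 7.15, 7.70 and 7.39 in KO stress, a difference of -1.01 ± 0.36, and Mir680-1 differed by -0.79 ± 0.27. WT replicate 1 was the highest array for each, followed by WT replicate 3. Mir15a differed by -0.60 ± 0.22 and Mir690 by -0.98 ± 0.44, with the same 2 arrays on top. Without WT stress replicate 1, the calls of Mir137, Mir680-1, Mir15a and Mir690 ended, and the medians of the microRNA and small nucleolar RNA lists were -0.08 and -0.13.

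Probe sets without a gene symbol followed the small RNAs. Of 5373 such sets 60 met the criterion as lower (1.12%) and 6 as higher (0.112%), against 55 (0.253%) and 92 (0.422%) of the 21776 sets with 1 symbol. All 60 were also lower in KO con, where 3510 of all 5373 sets without a symbol were, with a median difference of -0.70 in stress and -0.30 in con. Several of the 60 had nearly equal values, such as 2 sets with differences of -0.675 and -0.672 in stress and -0.166 each in con. The 60 need therefore not be separate transcripts. WT stress replicate 1 was the highest of the 10 stress arrays in 70% of the 60, above the mean of the other WT stress arrays by a median of 1.24, and 17 of the 60 met the criterion without it.

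Among single genes with the smallest p, Ngb, neuroglobin, an oxygen-binding protein of neurons, had levels of 7.02, 8.19, 7.82, 7.58 and 7.27 in WT stress and 8.91, 8.27, 8.91, 7.93 and 8.34 in KO stress. Only KO replicate 4 lay inside the WT range, and the difference was 0.90 ± 0.25 (exact permutation p = 0.0159), against -0.01 in con. Gpc3, a glypican that binds growth factors at the cell surface, had levels of 6.81, 7.90, 7.70, 7.45 and 7.38 in WT stress and 8.49, 8.36, 8.36, 8.19 and 8.36 in KO stress. Its groups did not overlap, and the difference was 0.90 ± 0.27 in stress and -0.12 in con. Ankfn1 had levels of 6.84, 7.38, 7.46, 7.60 and 7.51 in WT stress and 7.87, 8.41, 8.01, 7.86 and 8.39 in KO stress, again without overlap, and a difference of 0.75 ± 0.22.

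Hs3st3a1, an enzyme that sulfates heparan sulfate, had levels of 5.95, 5.97, 5.95, 5.95 and 6.26 in WT stress and 6.04, 7.10, 6.41, 7.13 and 6.70 in KO stress. The WT arrays were nearly alike and KO replicates 2 and 4 were the highest, with a difference of 0.66 ± 0.19. Hmgb2, a chromatin protein, differed by 0.60 ± 0.19 for 1 of its 4 probe sets, 2 of which met the criterion. Bex4 differed by 0.59 ± 0.18, or 0.38 without WT stress replicate 1.

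Of the genes lower in KO stress, Me3, the mitochondrial malic enzyme, had levels of 8.81, 7.999, 8.42, 8.05 and 7.73 in WT stress and 7.41, 7.57, 7.71, 7.55 and 7.52 in KO stress, with no overlap and a difference of -0.65 ± 0.18, or -0.50 without WT stress replicate 1. Gm24463 is a long noncoding RNA gene in RefSeq, while the annotation used by the study names its leading probe set as a small nucleolar RNA. All 5 of its probe sets met the criterion, and the leading one had levels of 8.92, 8.04, 8.61, 7.90 and 8.13 in WT stress and 7.66, 7.69, 7.73, 7.49 and 7.38 in KO stress. It too did not overlap between groups, and its difference was -0.73 ± 0.16, or -0.58 without WT stress replicate 1. Gm10590, with 4 of 4 probe sets past the criterion, differed by -0.96 ± 0.28 and 4930578G10Rik by -1.24 ± 0.39. WT replicate 1 was the highest array for both, at 10.57 and 9.92. Plekhg5 differed by -0.63 ± 0.20. Dpp6, a partner of potassium channels, differed by -0.74 ± 0.22 for 1 probe set and by 0.09 for the other.

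Genes near the targeted locus were counted apart, by distance on the chromosome. Of 195 measured genes within 5 Mb of Slc6a4, 96 were higher in KO stress (median 0.00) and 0 met the criterion. Within 20 Mb, 3 of 682 genes met it as higher (Fam183b, Hs3st3a1 and Ankfn1) and 1 as lower (Rnf112), and on the rest of the chromosome 5 and 3 of 880 did. Of all 19933 genes, 69 (0.346%) met it as higher and 45 (0.226%) as lower. Rnf112, a brain ubiquitin ligase, had levels of 9.88, 8.62, 8.91, 9.67 and 9.93 in WT stress and 8.84, 8.29, 8.68, 8.47 and 8.68 in KO stress, a difference of -0.81 ± 0.28. WT replicates 2 and 3 lay near the KO arrays. Nxn (0.50 ± 0.22), Doc2b (-0.51 ± 0.30) and Rasd1 (1.00 ± 0.59) did not meet the criterion.

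The genotype difference in con mice, which shares no array with that in stressed mice, gave 7 probe sets higher and 7 lower by the criterion (0.0243% each). After adjustment by limma 0 passed, and 1026 (3.57%) had an unadjusted p under 0.05. In stress 878 sets were higher (3.05%) and 1792 lower (6.23%) at that level. Of the 100 sets higher in KO stress, 39 were also higher in con, where 50.1% of all sets were (41.3% in stress), and their median was 0.74 in stress and -0.04 in con. Slc6a4 alone of them met the criterion in con. Of the 121 lower sets, 95 were also lower in con, with medians of -0.70 and -0.21, and 4 met the criterion there. Those 95 included the 60 sets without a symbol, and of the 55 lower sets with 1 symbol 29 were lower in con.

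Whether the genotype difference itself differed between stress and con was tested as an interaction. By limma 0 probe sets passed adjustment, and 202 (0.702%) with a more positive and 522 (1.81%) with a more negative difference in stress had an unadjusted p under 0.05. The called sets included 30 of the 100 higher and 37 of the 121 lower ones at that level. For Slc6a4 the interaction was 0.34 ± 0.33. A larger difference in stress than in con is thus a description of these groups, and was not shown for any single gene.

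**Figure D5:**
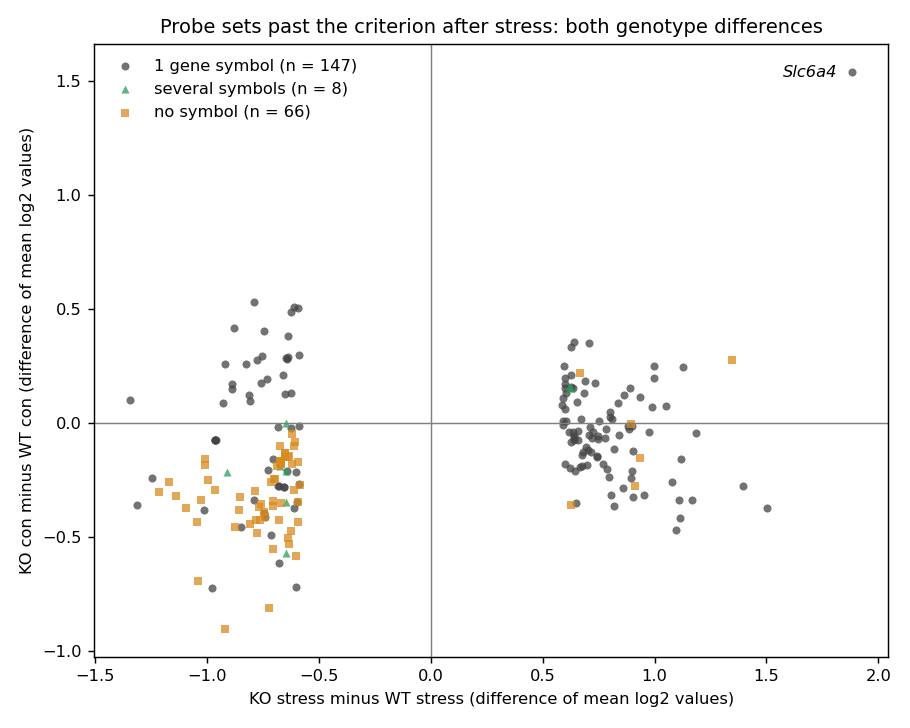
Difference in log2 signal, KO minus WT, in stress mice (horizontal axis) and in con mice (vertical axis), 1 point per probe set past the criterion in stress, with symbols for 1, several or no gene symbol. Slc6a4 lies at 1.88 in stress and 1.54 in con, while the 100 higher sets have a median of -0.04 in con.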

How the data were processed

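Total RNA of the amygdala was hybridised to 20 Affymetrix Mouse Gene 1.0 ST arrays, 5 per genotype and condition, and all mice were separate animals. The values the authors deposited are log2 signals per probe set, summarised and normalised by them with ExonRMA in ArrayAssist and variance stabilised. The files hold no background level, so detection was not judged and the number of arrays limits the precision. No scan date or other batch is given in the sources used here. From there, limma 3.58.1 (R 4.3.3) was fitted to the means of the 4 groups over all 20 arrays, the contrast KO stress minus WT stress was taken with eBayes, and p-values were adjusted by Benjamini-Hochberg over all 28767 probe sets. The study's criterion (fold over 1.5 and unadjusted p under 0.05) was applied to the same fit. Exact two-sided permutation tests of the difference of means were run for single genes, without adjustment over genes, and 0.00794 is the smallest p they can give. The script was tested on simulated data.

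GEO's platform annotation names 1 symbol for 21776 probe sets (19933 symbols), several for 1618 and none for 5373, and 21686 gene IDs matched RefSeq (GRCm38.p6). For a symbol with several probe sets, the one with the highest mean over all 20 arrays stood for the gene, or, for the genes named by p, the one with the smallest p. Of 810 list names, 755 were measured. Members and lists were chosen with earlier results of these data known, so counts of calls within a list are not independent of these data. Genes named are Slc6a4, the 10 with the smallest p in each direction, up to 4 of each list with the largest difference and further list members past the criterion. Defining markers and genes that the study's text names are given too. Of the latter, Adra2a has no probe set with 1 symbol and is described only by the set that the study names so. Lists were described by counts and medians, with no test. Alternatives were the study's unpaired t-test, the stress arrays alone, quantile normalisation, centring on array medians, a mean of at least 6, 1 symbol per probe set, trend and robust eBayes, a fold of linear means, the replicate number as a block, and each stress array left out. Promoters and mature microRNAs come from RefSeq. Figures used matplotlib 3.10.9 with Python 3.11.15.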

Additional observations from a re-analysis of the deposited data

Results flagged for a closer look

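Of 260 groups of 5 values tested with Dixon's criterion (the values of the named genes and list scores in WT stress and in KO stress, and array correlations), 23 held an array far from the other 4, and chance alone flags about 1 in 20 groups. WT stress replicate 1 accounted for 8 of the 23. It was the lowest WT stress array for Zfp521 (7.82, the others 8.70 to 8.86), Sik1 (7.77, the others 8.36 to 8.58), Ankfn1 (6.84, the others 7.38 to 7.60) and Doc2b (8.29, the others 9.46 to 9.94), and the highest for Cabp1 (7.998, the others 7.36 to 7.501). It was also lowest in the astrocyte score (-0.75, the others -0.08 to 0.11), the axon guidance score (-0.25, the others 0.03 to 0.12) and the median correlation with the other arrays (0.961, the others 0.980 to 0.988).

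KO stress replicate 4 was the highest KO stress array for 5 genes, Prdm8 (6.74), Sema3e (8.50), Robo3 (7.03), Nr4a3 (8.10) and Zbtb16 (8.71), against highest values of 6.42, 7.66, 5.71, 7.32 and 8.25 in the other 4. WT stress replicate 4 stood above its group for Chrm1 (9.12, the others up to 8.44), Ace (9.72, the others up to 7.62) and Cd74 (7.04, the others up to 6.16). KO stress replicate 5 was low for Penk (10.27, the others from 11.42) and the striatal and central amygdala score (-0.46, the others from 0.08), and high for Avpr1a (8.34, the others up to 7.61).

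The remaining 4 were WT stress replicate 5 for Hs3st3a1 (6.26, the others up to 5.97) and for the thalamic score (0.90, the others up to -0.42), WT stress replicate 3 for Dnah3 (6.88, the others from 7.73) and KO stress replicate 2 for Fbln5 (8.70, the others up to 8.11). No test of the interaction passed adjustment, so no gene is given as differing between stress and con.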

How the results depend on the processing

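Slc6a4 was the 1 probe set past adjustment, and the interaction had 0, under all alternatives run. Of the 70 called genes named, Slc6a4 apart, 14 met the criterion under all of them, 45 by the study's unpaired t-test, 35 without WT stress replicate 1 and 66 with the replicate block. The 100 higher probe sets became 54 when both WT arrays numbered 1 were left out (chosen after seeing the data), and 43 (without WT stress replicate 1) to 219 (without replicate 4) when 1 stress array was left out. The 121 lower ones became 66 by the unpaired t-test (76 higher), 55 among probe sets with 1 symbol, where fewer were tested, 63 without both WT arrays numbered 1, and 64 to 343 when 1 stress array was left out. Other alternatives gave 86 to 150 higher and 89 to 169 lower, the causes of which were not tested. Same-numbered arrays deviated together with correlations of -0.03, -0.05, 0.23, -0.03 and 0.51, so the numbers were not taken to pair the mice. With the number as a block, 150 were higher and 121 lower, Slc6a4 differed by 1.88 and it alone passed adjustment.

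Among list medians, those near 0 shifted beyond their spread. With a mean of at least 6, the median was 0.16 for the serotonin system, 0.12 for the GDNF family, 0.0545 within 5 Mb of Slc6a4, 0.0251 within 20 Mb and 0.0206 on the rest of the chromosome. With quantile normalisation it was 0.0300 for the GDNF family and 0.0043 within 20 Mb, where centring gave -0.00365. Without 1 array the GDNF median ran from -0.0586 to 0.0459. With a fold of linear means Penk (-0.0528) and Kcnj13 (-0.0694) changed sign, and Penk ran from -0.14 to 0.73 without 1 array.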
